A study of Rattus norvegicus with 88 samples.

Results

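The 5 miRNAs rno-miR-23a, rno-miR-27a, rno-miR-23b, rno-miR-27b and rno-miR-24 (miR-23a and so on from here) were taken by name from the rat array, which detected 314 miRNAs on at least 1 array and 363 on none. They come from a pair of duplicated clusters: the a cluster gives miR-23a and miR-27a, the b cluster gives miR-23b and miR-27b, and both clusters give one and the same mature miR-24. All 5 were among the 314, and among the 103 miRNAs detected on every array, so no member entered through a filter on dim signals. They were measured in whole livers of untreated F344 rats, an inbred laboratory strain, with 1 animal on each single-colour array. The livers were taken at 2 weeks of age (young), at 5, 6, 8, 15 and 21 weeks (adult) and at 52, 78 and 104 weeks (old). There were 45 females and 43 males, with 5 of each sex at each age except for 4 males at 5 and at 104 weeks. The animals carried no transgene and received no agent, and this small number of animals per group limits the precision of every value.

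A miRNA is a short RNA that guides a silencing complex to messenger RNAs, mainly through its seed, the bases near its 5′ end. Clustered miRNAs are cut from one primary transcript, so duplicated clusters allow the same targeting sequence to be made from separate loci under separate control. miR-23 and miR-27 are known for roles in endothelial cells and blood vessel growth, miR-23b for targeting of Smad messages of transforming growth factor beta signalling in liver cells, miR-27 for effects on lipid metabolism and adipocyte formation, and miR-24 for effects on cell proliferation. In whole tissue the signal is the sum over all cell types, so fewer cells of a type and less RNA per cell cannot be told apart.

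The mature sequences are printed because they show why the paralogs are read here as pairs. They come from RefSeq with coordinates on GRCr8, all 5 matched by name, and the capitals mark the seed (bases 2 to 8, counted from 1 at the 5′ end).
miR-23a: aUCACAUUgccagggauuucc
miR-23b: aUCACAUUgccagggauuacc
miR-27a: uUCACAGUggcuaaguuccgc
miR-27b: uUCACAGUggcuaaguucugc
miR-24: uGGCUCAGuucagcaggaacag
Each paralog pair shared its seed and differed by 1 of 21 bases, U19A between miR-23a and miR-23b and C19U between miR-27a and miR-27b. Of 693 mature rat names, the seed UCACAUU was held by the 2 miR-23 paralogs alone, UCACAGU by the 2 miR-27 paralogs alone and GGCUCAG by miR-24 alone. On chromosome 19 the a cluster lay on the minus strand, with miR-23a at chr19:40859778-40859798, miR-27a at chr19:40859614-40859634 and 1 copy of miR-24 (Mir24-2) at chr19:40859481-40859502. Its 3 hairpins spanned 389 bases and lay within no annotated gene span. On chromosome 17 the b cluster, also on the minus strand, held miR-23b at chr17:1819405-1819425, miR-27b at chr17:1819163-1819183 and the other copy of miR-24 (Mir24-1) at chr17:1818672-1818693. Its 3 hairpins spanned 814 bases within the span of Aopep, the gene of aminopeptidase O. The array measured each member with 2 probes of 10 spots each, and the brighter probe carried between 61.5% and 75.3% of a member's signal. Probe sequences were not used here, so binding of a probe to the paralog that differs by 1 base was not tested, and any such binding would draw the values of a pair together.

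Signals were divided by each array's 75th percentile over the 314 expressed miRNAs, so that a normalized intensity of 1 is that percentile, and log2-transformed. Between 134 and 255 miRNAs were detected per array, and saturation was absent from the spots of the members and of all other miRNAs. The arrays fell into 5 scans of 1, 13, 30, 28 and 16 arrays, parted where over 8 hours lay between scan times, and these were used as batches. The authors also spread the samples over several days of processing, which the labels do not give per sample, so a scan need not be a processing day. As a check of the tissue, the summed normalized intensity of miR-122, miR-192 and miR-194, which mark hepatocytes, was between 399 and 1388 on every array. Before the results, 3 livers of 104 weeks have to be named, because they stood apart: females 1 and 8 and male 2. Their hepatocyte sums were 691, 713 and 685, against 921 to 1234 in the other 6 livers of that age, and the values they moved most are given also without them, a choice made after the values were seen. The replicates are separate animals.

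The contribution of the a cluster was first compared with that of the b cluster within each array. The log2 difference between paralogs (miR-23a minus miR-23b, and miR-27a minus miR-27b) does not depend on how an array is scaled by a single factor. Because different probes do not share a scale, a difference below 0 does not say that the b member was more abundant, and only shifts of the difference between groups are described.

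Between 2 weeks and adulthood, both a-cluster miRNAs rose against their b-cluster paralogs in both sexes, by between 0.51 and 0.64 on the log2 scale. Quantile normalization, which does not scale an array by a single factor, gave 0.59 in females and 0.41 in males for the miR-23 pair and 0.33 and 0.62 for the miR-27 pair. In 2-week females, miR-23a minus miR-23b was -1.73, -1.89, -1.84, -1.75 and -1.88. In the 25 adult females it ran from -1.54 to -1.02 with a median of -1.23, so that no adult female overlapped a young one. The shift in females was 0.57 (means -1.25 ± 0.16 and -1.82 ± 0.07, SD, n = 25 and 5), a 1.48-fold change of the ratio, with a two-sided exact permutation p = 7.02e-06, the smallest this design allows (adjusted p = 5.61e-05 over 16 tests of age). In 2-week males the same difference was -1.46, -1.68, -1.35, -1.64 and -1.47. Adult males ran from -1.38 to -0.49 with a median of -0.96, and the groups overlapped only at their edges, between -1.38 and -1.35. The shift in males was 0.60 (-0.92 ± 0.19 and -1.52 ± 0.14, SD, n = 24 and 5, exact permutation adjusted p = 8.98e-05), a 1.51-fold change of the ratio.

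The miR-27 pair, which has another seed, moved by a similar amount. In 2-week females, miR-27a minus miR-27b was -2.13, -2.07, -1.87, -2.14 and -2.13, below all adult females, which ran from -1.82 to -1.12 with a median of -1.56. This was a shift of 0.51 (-1.56 ± 0.17 and -2.07 ± 0.11, SD, n = 25 and 5, exact permutation adjusted p = 5.61e-05). In 2-week males it was -1.72, -2.07, -1.33, -1.93 and -1.99, more spread than in females, and the liver at -1.33 lay among the adult males, which ran from -1.70 to -0.53 with a median of -1.14. The shift in males was 0.64 (-1.17 ± 0.26 and -1.81 ± 0.30, SD, n = 24 and 5, exact permutation adjusted p = 0.000404). Within single scans that held both classes, the shift from young to adult was between 0.46 and 0.75 for the miR-23 pair and between 0.44 and 0.75 for the miR-27 pair, in the same direction in each of them. Each of these shifts rested on only 1 to 3 young livers.

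**Figure D1:**
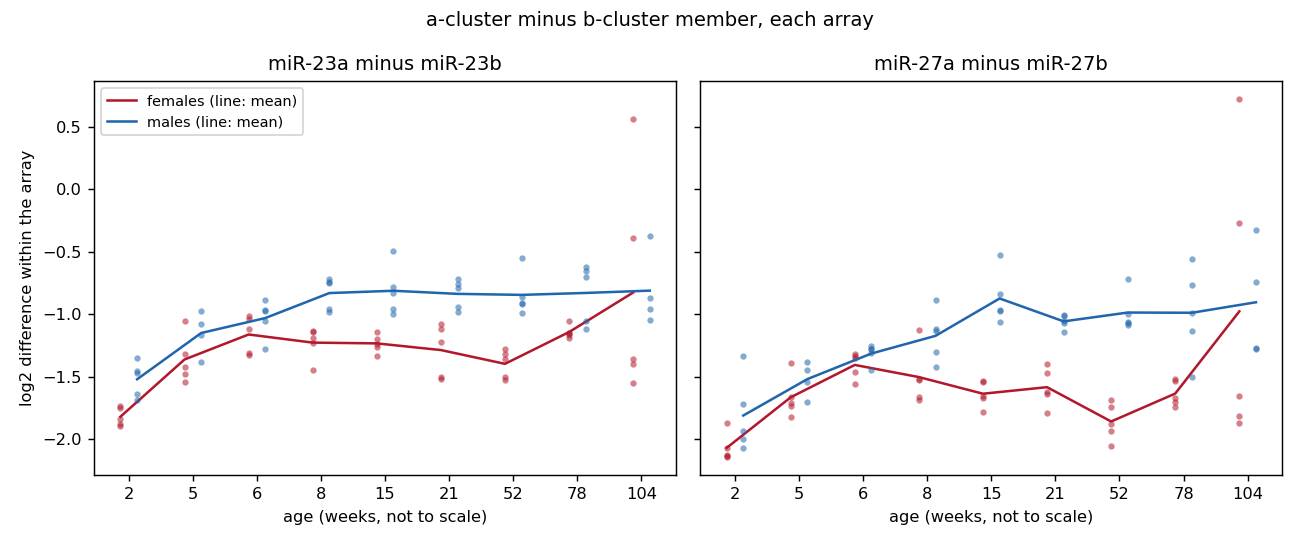
Within-array log2 difference of miR-23a minus miR-23b and of miR-27a minus miR-27b (y axis) by age in weeks (x axis), with each point 1 liver and lines through the mean of each sex. Within each sex the lowest means are those of 2 weeks, males lie above females at 52 weeks (-0.85 against -1.40 for the miR-23 pair), and 1 female of 104 weeks reaches 0.56 and 0.72.

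From adult to old rats the miR-23 pair shifted by 0.09 in males (permutation adjusted p = 0.207) and 0.13 in females (permutation adjusted p = 0.304), both within the spread between livers. Without the 3 livers the values were 0.06 (permutation adjusted p = 0.384) in males and -0.05 (permutation adjusted p = 0.351) in females, the latter with the opposite sign. For the miR-27 pair the male value was 0.21 (-0.96 ± 0.31, SD, n = 14, against -1.17 ± 0.26, SD, n = 24), with a permutation p = 0.0302 that missed the threshold after adjustment (0.0538). The female value was 0.07 (permutation adjusted p = 0.713) and turned to -0.20 (permutation adjusted p = 0.00373) once females 1 and 8 of 104 weeks were left out. Over the 8 ages from 5 to 104 weeks, the age means of the miR-27 pair in males ranged over 0.64, from -1.52 at 5 weeks to -0.87 at 15 weeks, and passed the permutation F test (adjusted p = 0.00926 over 8 tests). The corresponding range was 0.34 for the miR-23 pair in males (adjusted p = 0.115). In females it was 0.57 for the miR-23 pair (adjusted p = 0.216) and 0.88 for the miR-27 pair (adjusted p = 0.109), and the 3 livers of 104 weeks bore on these calls. Without them the values were 0.34 (adjusted p = 0.0485), 0.29 (adjusted p = 0.0354) and 0.45 (adjusted p = 0.00248), respectively. The livers left out were those with the highest values of these differences at that age, so the adjusted p-values without them are a description.

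Males had higher a-minus-b values than females at 9 of 9 ages for both pairs, and 10 of the 18 differences passed an exact permutation test adjusted over 36 tests of sex. At 52 weeks, miR-23a minus miR-23b was -1.32, -1.50, -1.36, -1.52 and -1.28 in females and -0.92, -0.55, -0.91, -0.99 and -0.86 in males. The sexes did not overlap, and males were higher by 0.55 (exact permutation p = 0.00794, the smallest that 5 against 5 livers allow, adjusted p = 0.022). The difference also passed at 2 weeks (0.30), 8 weeks (0.40), 15 weeks (0.42), 21 weeks (0.45) and 78 weeks (0.31), the last with overlap of the sexes and adjusted p = 0.0476. At 5, 6 and 104 weeks it was 0.21, 0.13 and 0.02 and did not pass.

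For the miR-27 pair the sexes did not overlap at 15, 21, 52 and 78 weeks, and they overlapped at the other ages. At 15 weeks, miR-27a minus miR-27b was -1.54, -1.53, -1.65, -1.78 and -1.67 in females and -0.97, -0.53, -0.84, -0.97 and -1.06 in males, again without overlap. Males were higher by 0.76 at 15 weeks, 0.53 at 21 weeks, 0.87 at 52 weeks and 0.65 at 78 weeks (each exact permutation adjusted p = 0.022). At 2, 5 and 6 weeks the values were 0.26, 0.15 and 0.09, and the 8-week value of 0.33 had an exact permutation adjusted p = 0.0902. At 104 weeks the difference was 0.07 with all livers and 0.68 without the 3 that stood apart, and for the miR-23 pair it was 0.02 and 0.48. Those 3 against 3 comparisons cannot go below an exact p of 0.1. Whether the sex difference changed with age was not tested. Within scans 2 to 5 the male minus female value over 8 to 104 weeks was between 0.32 and 0.55 for the miR-23 pair and between 0.53 and 0.68 for the miR-27 pair. With arrays centred on their scan, 6 of the 18 differences passed. Some marker sums also parted the sexes without overlap at single ages. The hepatocyte sum at 2 weeks was 399 to 429 in males and 560 to 674 in females. The erythroid sum was 8.16 to 17.7 in males and 4.17 to 8.00 in females at 8 weeks, and 7.82 to 19.3 and 5.27 to 7.35 at 15 weeks. The biliary sum at 8 weeks was 2.80 to 3.73 in males and 1.63 to 2.07 in females, and the skeletal muscle sum at 52 weeks was 0 to 0.111 in males and 0.114 to 0.201 in females. The sexes overlapped in the sums of the endothelial, stellate and leukocyte lists at 9 of 9 ages, and the part of other cell types in the sex differences was not tested.

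The members of one cluster were then compared with each other, since they are cut from a shared precursor. Within groups of one age and sex, miR-23b minus miR-27b was the steadiest difference of any pair of members, with a pooled SD of 0.079 over the 88 arrays. The corresponding SD was 0.138 for miR-23a minus miR-27a, 0.267 for miR-23a minus miR-23b and 0.339 for miR-27a minus miR-27b. Without the 3 livers of 104 weeks the last 2 values were 0.149 and 0.184, while that of miR-23b minus miR-27b was 0.080. That of miR-27b minus miR-24 was then close to it, at 0.084. In the a cluster, miR-23a minus miR-24 (0.113) was then steadier than miR-23a minus miR-27a (0.128).

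The steady b-cluster difference nevertheless shifted with age, upward for miR-23b against miR-27b. In males it was 0.67, 0.67, 0.54, 0.64 and 0.60 at 2 weeks and 0.69, 0.69, 0.66 and 0.64 at 5 weeks. At 15 weeks it was 1.18, 1.13, 1.19, 1.14 and 1.12, above every liver of the 2 earlier ages. From young to adult males it rose by 0.30 (exact permutation adjusted p = 0.00649) and from adult to old males by 0.22 (permutation adjusted p = 0.00138). In females the values were 0.12 (exact permutation adjusted p = 0.0689) and 0.07 (permutation adjusted p = 0.111). Quantile normalization gave 0.50 in males and 0.0069 in females for the shift from young to adult. Over 5 to 104 weeks the age means ranged over 0.50 in males and 0.32 in females, and both passed the F test at the smallest p that 100000 permutations give (1e-05, adjusted p = 4e-05).

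**Figure D2:**
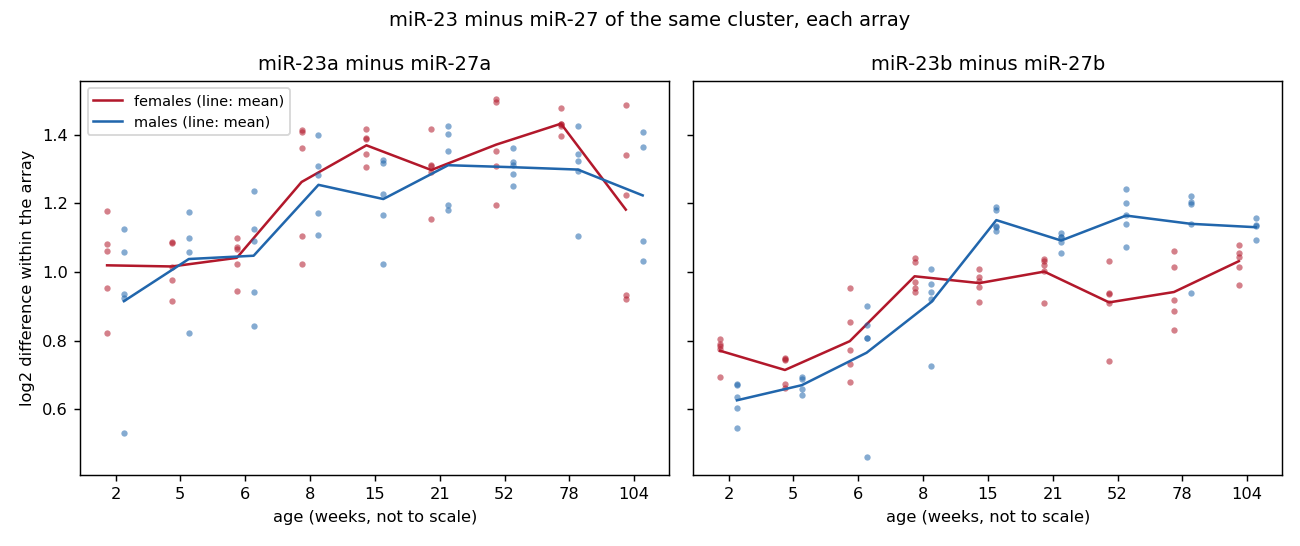
Within-array log2 difference of miR-23a minus miR-27a and of miR-23b minus miR-27b (y axis) by age in weeks (x axis), with each point 1 liver and lines through the mean of each sex. The b-cluster difference is the tighter one, and its male means climb from 0.63 at 2 weeks to 1.15 at 15 weeks.

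The sexes crossed in this b-cluster difference. At 2 weeks females were higher, with 0.78, 0.78, 0.79, 0.69 and 0.81, and the male minus female value was -0.14 (exact permutation adjusted p = 0.022). Males were higher by 0.18 at 15 weeks, 0.09 at 21 weeks and 0.25 at 52 weeks (each exact permutation adjusted p = 0.022). They were also higher by 0.20 at 78 weeks (exact permutation adjusted p = 0.0476) and by 0.10 at 104 weeks (exact permutation adjusted p = 0.0408). Without the 3 livers the 104-week value was 0.12, with 3 against 3 livers and an exact permutation adjusted p = 0.164, and the 78-week value missed the threshold at an adjusted p = 0.0504, its livers being the same. Sizes here were small, at most 1.19-fold. For miR-23a minus miR-27a, males were lower at 15 weeks by -0.16 and at 78 weeks by -0.13 (each exact permutation adjusted p = 0.0476), and the other 7 ages did not pass. These 2 calls, and the 78-week call of miR-23a minus miR-23b, also missed the threshold without the 3 livers (each exact permutation adjusted p = 0.0504). The 8 calls of both within-cluster differences numbered 4 without the 3 livers, and fell to 4 with the brighter and 3 with the dimmer probe alone, and to 2 with arrays centred on their scan. From young to adult rats, miR-23a minus miR-27a shifted by 0.26 in males (exact permutation adjusted p = 0.0144) and 0.18 in females (exact permutation adjusted p = 0.0636), and its age means over 5 to 104 weeks passed the permutation F test in males (range 0.27, adjusted p = 0.0155) and in females (range 0.42, adjusted p = 0.00032). Under the alternative background correction, normexp, the male shift from young to adult had a permutation adjusted p = 0.164 and the male F test an adjusted p = 0.214, and the latter had 0.0717 with the brighter probe alone.

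The group with the lowest mean was 2-week males for all 5 members. Among females it was the 2-week group for 4 of them, whereas miR-27b was lowest at 104 weeks, with a mean intensity of 12.4 ± 4.92 (SD, n = 5) against 13.7 ± 0.84 (n = 5) at 2 weeks. Without females 1 and 8 the 104-week mean was 15.9, and the 2-week group was the lowest for miR-27b too. The normalized intensity of miR-23a was 7.89, 6.02, 6.49, 6.44 and 6.46 in 2-week females and 6.22, 4.398, 6.97, 4.84 and 5.46 in 2-week males. The later livers ran from 9.02 to 19.2 with a median of 12.99 in females and from 9.42 to 18.9 with a median of 12.6 in males, without overlap with 2 weeks. For miR-27a, 2-week females had 3.48, 3.11, 3.67, 3.04 and 3.1 and 2-week males 3.26, 2.11, 4.83, 2.55 and 2.50, of which the male at 4.83 reached the later range of 4.56 to 8.42.

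The b-cluster members started nearer to their later range. For miR-23b, 2-week females had 26.2, 22.4, 23.2, 21.7 and 23.7, within the range of later females (13.02 to 38.2, median 30.5), whereas 2-week males had 17.1, 14.1, 17.7, 15.1 and 15.1, mostly below later males (17.5 to 29.1, median 25.0). For miR-27b, 2-week females had 15.2, 13.1, 13.4, 13.4 and 13.6 and 2-week males 10.71, 8.88, 12.2, 9.70 and 9.95, both overlapping later livers of their sex (6.16 to 19.9 and 7.96 to 18.4). Some of these lowest later values were those of the 3 livers of 104 weeks. Without them, later females began at 22.7 and later males at 18.4 for miR-23b, so that all 2-week males lay below later males and 2-week females still overlapped later females, and for miR-27b the lowest values were 13.01 and 9.85. For miR-24, the shared product, 2-week females had 10.11, 8.88, 8.997, 8.95 and 9.14 and 2-week males 7.72, 5.92, 8.32, 6.90 and 6.84. The male values were below all later males (9.97 to 14.1), and the highest female value, 10.11, lay just under the lowest later female, 10.12. The lowest later female was 10.9 without the 3 livers.

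**Figure D3:**
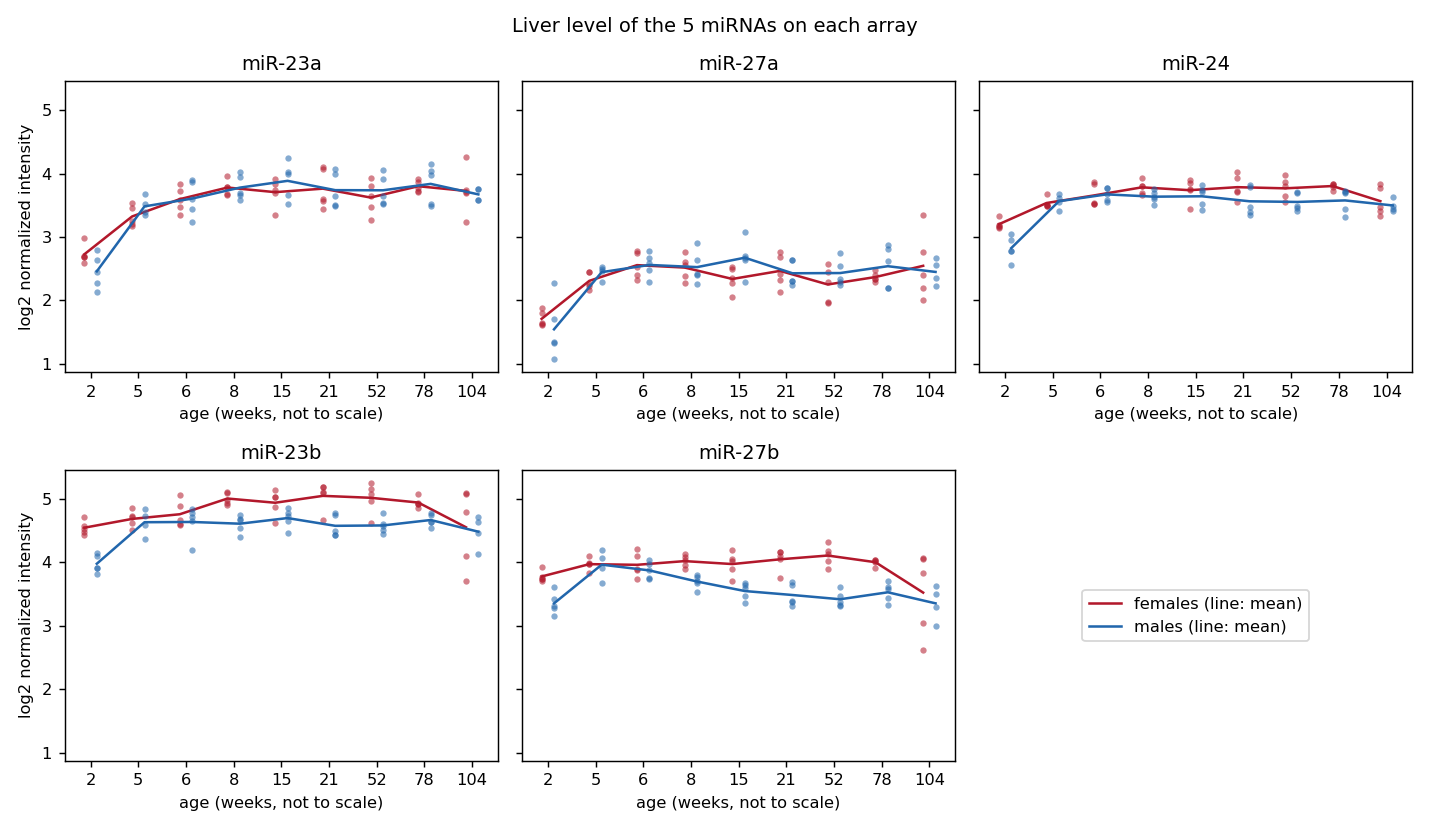
Normalized intensity of each member on a log2 scale (y axis) by age in weeks (x axis), with each point 1 liver and lines through the mean of each sex. The 2-week livers are the lowest for miR-23a in both sexes, and miR-27b of males goes from a mean intensity of 15.8 at 5 weeks to 10.4 at 104 weeks.

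Ordering the 18 groups of age and sex by their means put 2-week males lowest for every member, though for miR-27b the 104-week males had the same mean log2 intensity to 2 decimals (3.35). The highest group was 15-week males for miR-23a and miR-27a, 21-week females for miR-23b, 52-week females for miR-27b and 78-week females for miR-24. Most neighbours in these orders could not be separated, since only 1 or 2 of the 17 gaps between neighbouring means exceeded the larger of the neighbours' SDs.

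With limma's moderated test over all 314 miRNAs, 4 of 5 members were called higher in adult than in 2-week males, at an adjusted p under 0.05 and at least 1.5-fold, where 29.9% of all miRNAs tested were called higher. The log2 differences were 1.25 ± 0.12 (SE) for miR-23a, 0.99 ± 0.13 for miR-27a, 0.79 ± 0.07 for miR-24 and 0.65 ± 0.08 for miR-23b, while miR-27b was at 0.35 (adjusted p = 0.00339), under the fold limit. In females 2 of 5 were called, against 22.9% of all tested, miR-23a at 0.91 ± 0.12 (SE) and miR-27a at 0.73 ± 0.12. The other 3 were at 0.50 for miR-24 (adjusted p = 1.43e-06), 0.34 for miR-23b (adjusted p = 0.0424) and 0.22 for miR-27b (adjusted p = 0.196), and the median over all 314 was 0.13 in each sex.

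These directions depended on the scaling. When each array was scaled to the 103 miRNAs detected everywhere, the young to adult values in males were 0.14 for miR-23a, -0.13 for miR-27a, -0.32 for miR-24, -0.46 for miR-23b and -0.76 for miR-27b, and in females 0.25, 0.08, -0.15, -0.31 and -0.43. Under that scaling the median over all 314 was -0.28 in males and -0.03 in females, no member was called higher, and miR-27b was called lower in males. Quantile normalization also left no member called higher in either sex, and it called miR-27b lower in males (-0.69, limma adjusted p = 2.4e-05). The shares of all miRNAs called lower under either scaling are not given. Scaling to the percentile over all miRNAs on the array called 5 of 5 higher in both sexes, where 42% of all miRNAs in males and 38.5% in females were called higher and the medians over all 314 were 0.62 and 0.57. The shares called higher were 7.32% and 7.96% with the percentile over the 103 miRNAs and 23.2% and 22.3% with quantile normalization. The mean log2 intensity of the 103 miRNAs was 0.91 in males and 1.27 in females at 2 weeks and at least 1.69 at each later age, and among the 103 the young to adult median was 0.99 in males and 0.52 in females. Set against these, miR-23a exceeded 72 of the 103 in males and 79 in females, whereas miR-27b exceeded 21 and 26. Over 14 settings and both sexes, the a members stood above the b members in 28 of 28 cases, and the full order of miR-23a, miR-27a, miR-24, miR-23b and miR-27b held in 27, the exception being males under quantile normalization, where miR-24 (-0.38) lay below miR-23b (-0.20). These counts include settings that could not change the order. Scaling by a single factor moves all 5 members of an array alike. The authors' deposited table, the detection filter, the raw minimum for undetected values and leaving out old livers kept the member values of this comparison unchanged. Only the remaining settings, such as quantile normalization, normexp and the blocks, could change the order. In the 27 cases with the full order, miR-24, the product of both clusters, had a value between those of the a and the b members.

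**Figure D4:**
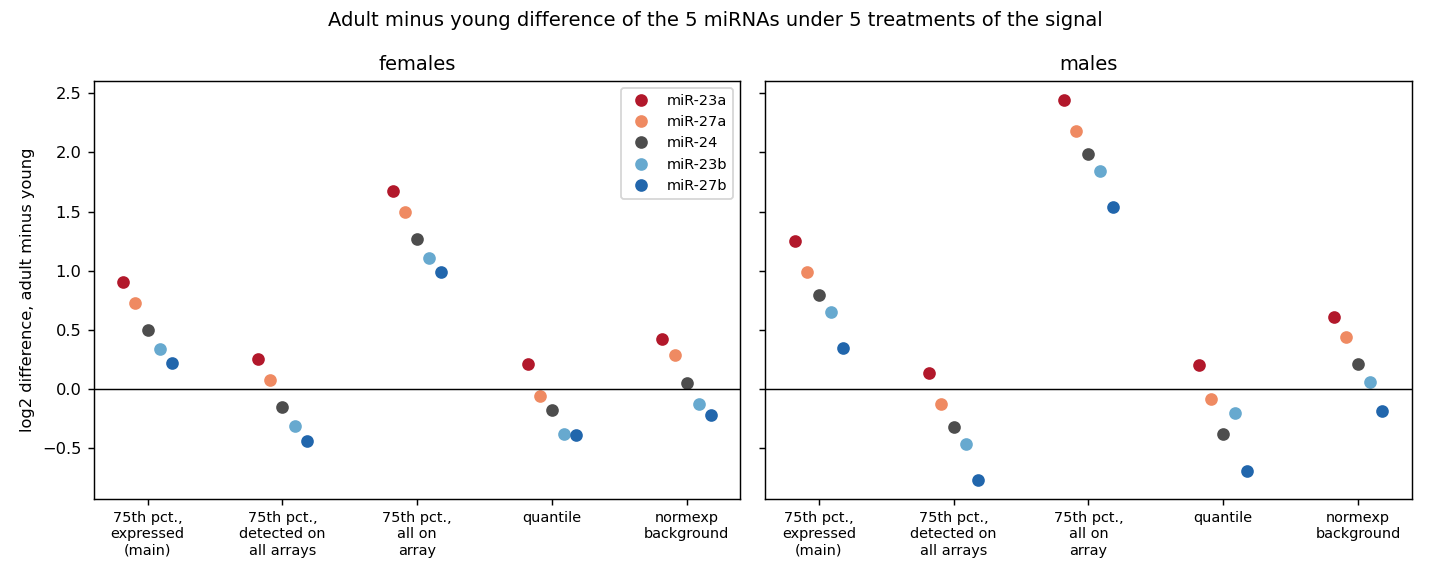
Log2 difference of adult minus 2-week livers for each member (points, y axis) under 5 treatments of the signal (x axis), in females and males. The values of a member slide with the treatment, from 2.44 down to 0.14 for miR-23a in males, while miR-27b stays the lowest of the 5.

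From adult to old livers, no member was called in either sex with limma, where 5.1% of all miRNAs were called in males and 4.46% in females. At an unadjusted p under 0.05 there was 1 of 5 in males and 0 of 5 in females. The one was miR-27b in males, at -0.26 (95% interval -0.41 to -0.12, adjusted p = 0.00946), under the fold limit. For miR-23a the interval of the difference was -0.13 to 0.22 in males and -0.08 to 0.25 in females, so changes within these bounds were not excluded. The F test over all 9 ages passed for 5 of 5 in males (56.1% of all miRNAs) and 5 of 5 in females (61.8%). These counts depended on the scaling: in males they were 3 with the percentile over the 103 miRNAs, 3 with quantile normalization and 0 with normexp, and in females 3 with the percentile over all miRNAs and 3 with quantile normalization. The shares of all miRNAs passing under these scalings are not given, so the counts cannot be read against a background. Without the 3 livers miR-27b of females had an adjusted p = 0.0884 in this test, which 60.2% of all miRNAs passed. Over 5 to 104 weeks it passed in males for miR-27b alone (adjusted p = 0.000267, with 20.1% of all miRNAs passing) and in females for none (32.8% passing, with 4 of 5 members at an unadjusted p under 0.05). These counts also depended on the scaling: in males they were 3 with the percentile over the 103 miRNAs, 3 with quantile normalization, 0 with the percentile over all miRNAs and 0 with normexp, and in females 4, 3, 0 and 4. They too lack the shares of all miRNAs passing under the same scalings. In females the members that passed this test numbered 2 without the 3 livers of 104 weeks, miR-23a and miR-23b (each adjusted p = 0.047), where 33.4% of all miRNAs passed.

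The ages at which miR-27b of males was high were the early ones of this span. Its male mean intensities were 15.8 ± 2.41 (SD, n = 4) at 5 weeks, 14.7 ± 1.34 (n = 5) at 6 weeks and 13.01 ± 0.90 (n = 5) at 8 weeks. They were 11.7 at 15 weeks, 11.3 at 21 weeks, 10.73 at 52 weeks, 11.6 at 78 weeks and 10.4 at 104 weeks. Female means stayed between 15.7 and 17.3 from 5 to 78 weeks and were 12.4 at 104 weeks, or 15.9 ± 1.46 (SD, n = 3) without females 1 and 8. In males the biliary sum was 3.05 to 4.38 at 5 weeks and 1.16 to 2.32 at 15 weeks, and the hepatocyte sum 634 to 877 and 964 to 1272, each without overlap of these ages, while the other 5 sums overlapped. Their part in the values of miR-27b and of miR-23b minus miR-27b was not tested.

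Between the sexes, miR-27b and miR-23b were lower in males at 9 of 9 ages under the reported scaling, but at 6 and 5 of 9 with the percentile over all miRNAs of the array. The count for miR-27b was 7 with quantile normalization, 8 with the mean processed signal and 8 with normexp, and that for miR-23b was 7 with normexp. Of the 45 comparisons of a member at an age, 1 was called at 1.5-fold. It was miR-27b at 52 weeks, with intensities of 19.9, 16.3, 14.8, 17.5 and 18.1 in females and 10.1, 11.1, 10.4, 9.89 and 12.2 in males. The sexes did not overlap, and the log2 difference was -0.69 (limma adjusted p = 0.000199), but it was 0.24 (adjusted p = 0.99) with the percentile over all miRNAs, where miR-23b was at 0.49. With the percentile over the 103 miRNAs it was -0.56 (limma adjusted p = 3.61e-07), under the fold limit. The 1 call of miR-27b under that scaling was at 15 weeks (-0.62), where 10.5% of all miRNAs were called lower in males. At 104 weeks miR-27b was at -0.17 with all livers and at -0.51 (limma adjusted p = 0.00715) without the 3. The share of all miRNAs called lower in males at 1.5-fold was 4.14% at 52 weeks, and 7.64% at 2 weeks, 0% at 5 weeks, 0.318% at 6 weeks, 4.46% at 8 weeks, 6.05% at 15 weeks, 3.5% at 21 weeks, 2.55% at 78 weeks and 0.318% at 104 weeks.

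Differences under 1.5-fold passed the adjusted p at 8 more of these 45 comparisons, all lower in males. The share of all miRNAs that were lower in males at an adjusted p under 0.05 and any fold was 17.2% at 2 weeks, 8.28% at 15 weeks, 5.41% at 21 weeks, 6.05% at 52 weeks and 3.5% at 78 weeks, the ages of these comparisons, and 0% at 5 weeks, 0.318% at 6 weeks, 5.73% at 8 weeks and 0.637% at 104 weeks. For miR-27b they were -0.42 at 2 weeks, -0.43 at 15 weeks, -0.56 at 21 weeks and -0.47 at 78 weeks (limma adjusted p between 0.00269 and 0.0371). For miR-23b they were -0.57 at 2 weeks, -0.47 at 21 weeks and -0.44 at 52 weeks, and for miR-24 the value was -0.38 at 2 weeks (adjusted p = 0.00159). The 2-week values of miR-24 and miR-27b turned to 0.05 and 0.01 under quantile normalization, and that of miR-24 to 0.02 under scaling to the 103 miRNAs. With the percentile over all miRNAs, miR-27b turned to 0.32 at 15 weeks and miR-23b to 0.49 at 52 weeks (limma adjusted p = 0.792 and 0.562). The a members passed at no age: miR-23a lay between -0.27 and 0.18 and miR-27a between -0.17 and 0.34. Within scans 2 to 5, the male minus female value over 8 to 104 weeks was between -0.55 and -0.39 for miR-27b, between -0.43 and -0.24 for miR-23b and between -0.19 and -0.11 for miR-24.

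**Figure D5:**
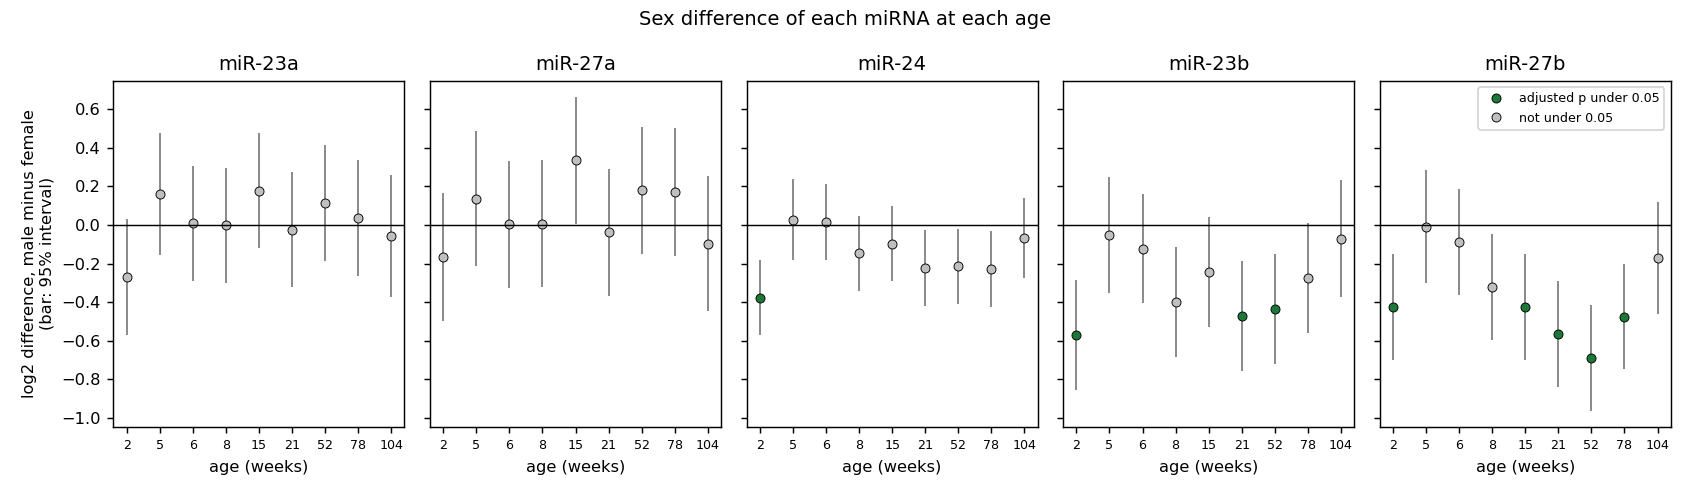
Male minus female log2 difference of each member (y axis) at each age in weeks (x axis), with 95% confidence intervals from limma and green points at an adjusted p under 0.05. miR-27b and miR-23b lie below 0 at all 9 ages under this scaling (6 and 5 with the percentile over all miRNAs), with miR-27b lowest at 52 weeks (-0.69).

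The interaction of sex with the difference of adult and 2-week rats passed for miR-24, at 0.29 (limma adjusted p = 0.0402), where 27.1% of all miRNAs passed. It was 0.34 for miR-23a (adjusted p = 0.166), 0.31 for miR-23b (adjusted p = 0.201), 0.26 for miR-27a (adjusted p = 0.366) and 0.13 for miR-27b (adjusted p = 0.747), and whether these differ from the value of miR-24 was not tested. The sign of miR-24 turned to -0.17 under scaling to the 103 miRNAs and to -0.21 under quantile normalization. The interaction with the difference of old and adult rats passed for none of the 5 (1.59% of all miRNAs passed, none of the 5 at an unadjusted p under 0.05). Without the 3 livers miR-27b had -0.27 in it, with an unadjusted p = 0.00151 and a limma adjusted p = 0.0675.

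The 3 livers of 104 weeks with low hepatocyte sums held the highest a-minus-b values of that age. For females 1 and 8 and male 2, miR-23a minus miR-23b was -0.39, 0.56 and -0.37, and miR-27a minus miR-27b was -0.27, 0.72 and -0.32. The other 6 livers lay between -1.55 and -0.87 for the miR-23 pair and between -1.87 and -0.74 for the miR-27 pair, with no overlap. In the 3 livers the log2 intensity was 4.10, 3.70 and 4.13 for miR-23b and 3.04, 2.62 and 2.99 for miR-27b, each below the other livers of that age. For miR-27a it was 2.77, 3.34 and 2.67, each above the others (2.01 to 2.56). For miR-23a it was 3.71, 4.27 and 3.76 against 3.24 to 3.76. The values of miR-23b minus miR-27b were 1.06, 1.08 and 1.14. The females were above the other 3 females (0.96 to 1.04), and the male was among the other 3 males (1.09 to 1.16). Of 6 listed leukocyte miRNAs (miR-142-3p, miR-142-5p, miR-223, miR-150, miR-146a and miR-155) 5 were on the array, and their summed intensity was 27.1, 37.2 and 30.5 in the 3 livers against 14.8 to 21.7 in the others. The endothelial sum (miR-126 and miR-126*) was 19.6, 22.6 and 15.4 against 14.1 to 22.2. The biliary sum was 1.84, 2.52 and 4.64, higher in each sex than in the other livers (0.378 to 1.43 in females and 1.84 to 3.24 in males). The stellate and smooth muscle sum was 12.5, 13.6 and 13.4 against 9.86 to 16.6, the erythroid sum 12.1, 6.72 and 9.75 against 11.1 to 16.1, and the skeletal muscle sum 0, 0 and 0.0844 against 0 to 0.132. No listed marker on the array was undetected on every array, and the part of other cell types in these values was not tested.

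The same marker sums at 2 weeks and in adults are given beside the shift between these classes, with no test. The leukocyte sums of both classes did not overlap, nor did the hepatocyte sums of 2-week males and adults. Within males the erythroid sums did not overlap either, with 3.18 to 6.26 at 2 weeks and 7.14 to 21.1 in adults, whereas the other ranges overlapped within each sex. The hepatocyte sum was 399 to 429 in 2-week males and 560 to 674 in 2-week females, against 634 to 1289 in adults. The leukocyte sum was 5.0 to 8.26 at 2 weeks and 9.25 to 19.8 in adults, and the endothelial sum 13.4 to 21.0 at 2 weeks and 14.7 to 24.0 in adults. Sums of 5 stellate and smooth muscle miRNAs were 8.96 to 14.0 at 2 weeks and 11.2 to 23.6 in adults, those of 2 erythroid miRNAs 3.18 to 6.26 and 4.17 to 21.1, those of 5 biliary miRNAs 2.52 to 4.204 and 0.534 to 5.26, and those of 5 skeletal muscle miRNAs 0 to 5.27 and 0 to 65.6. Their part in the shift between 2 weeks and adulthood was not tested.

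The star forms, which come from the other arm of each hairpin, were mostly not detected. miR-23a*, miR-23b*, miR-27a*, miR-27b* and miR-24-1* were detected on 0 of 88 arrays, as was miR-3074, whose RefSeq hairpin lies on the opposite genomic strand over Mir24-1. miR-24-2*, from the a-cluster copy, was detected on 13 arrays (8 females and 5 males) at normalized intensities of 0.0148 to 0.0519 with a median of 0.0302. No comparison of age or sex passed limma's test for miR-24-2* (F over 9 ages, adjusted p = 0.764 in males and 0.884 in females).

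The likeness of age profiles was described by Pearson's r over the 18 group means of log2 intensity, with r over the 16 groups of 5 to 104 weeks beside it. All points share the arrays and their scaling, and no p is given. The most similar non-members, among 98 detected everywhere, were miR-22 (0.96 and 0.71), miR-497 (0.96 and 0.78) and miR-195 (0.95 and 0.76) for miR-23a. They were miR-21 (0.94 and 0.61), miR-22 (0.90 and 0.17) and miR-16 (0.87 and 0.38) for miR-27a. For miR-23b they were let-7d (0.91 and 0.80), miR-28 (0.87 and 0.82) and miR-148b-3p (0.86 and 0.86), for miR-27b miR-130a (0.76 and 0.80), miR-425 (0.72 and 0.76) and miR-152 (0.71 and 0.73), and for miR-24 miR-378 (0.96 and 0.77), miR-98 (0.95 and 0.74) and miR-186 (0.95 and 0.65).

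Among the members themselves, the profile of miR-24 from 5 weeks on was more like the b than the a members. Over the 16 later groups miR-24 had r = 0.92 with miR-23b and 0.73 with miR-27b, against 0.31 with miR-23a and -0.17 with miR-27a. Over all 18 groups, the 2-week livers included, these values were 0.90, 0.58, 0.89 and 0.81, so that both a members were nearer to miR-24 than miR-27b was. Over the 16 later groups miR-23b ranked first of 102 miRNAs in likeness to miR-24, and over all 18 groups it ranked 15 of 102. The paralogs with a shared seed were less alike, with r = 0.14 for miR-23a and miR-23b and -0.41 for miR-27a and miR-27b (0.65 and 0.14 over 18 groups), than the members of one cluster, with 0.47 for miR-23a and miR-27a and 0.80 for miR-23b and miR-27b (0.94 and 0.78).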

How the data were processed

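Total RNA of whole F344 rat liver was hybridized to Agilent rat miRNA arrays, 1 animal per array. The authors deposited Feature Extraction intensity values per spot, probe and miRNA (total gene signal, with 0.1 for undetected), and a normalized table of ratio values to each array's 75th percentile, which was compared with the values made here (0 member values differed by over 0.01%). Spots were joined by probe name. Signals were divided by the 75th percentile over the 314 expressed miRNAs (rank 236, with 28.1 to 289 signal units per array), undetected values were set to 0.0120, and log2 values were tested with limma 3.58.1 in R 4.3.3, adjusted over all 314 miRNAs (Benjamini-Hochberg). Within-array differences were tested by exact permutation, or by 100000 permutations (Python 3.11.15, numpy 2.4.6, pandas 2.3.3, scipy 1.17.1, matplotlib 3.10.9). The members, lists and tests were chosen with earlier results of these data known. Named miRNAs are the members, their star forms and the 3 most similar profiles per member. Alternatives covered scaling, background (normexp on median signals, since mean signals were not used here), probes, filters, scan, slide and replicate number. The limma and permutation code was tested on simulated data.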

Additional observations from a re-analysis of the deposited data

Results flagged for a closer look

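Of 162 groups of 4 or 5 livers, 13 held a liver far from the others, where chance gives about 1 in 20 groups. The ratio given is the gap of that liver to its nearest neighbour over the whole range of the group. Female 1 of 2 weeks was the highest of its group for miR-23a (0.725), miR-27b (0.751) and miR-24 (0.783). Female 6 of 21 weeks was the lowest for miR-23b (0.814), miR-27b (0.739) and miR-23b minus miR-27b (0.723). Male 10 of 52 weeks was the highest for miR-23a minus miR-23b (0.719) and miR-27a minus miR-27b (0.752). Single flags were female 3 of 78 weeks, lowest for miR-27b (0.793), female 3 of 5 weeks, highest for miR-24 (0.893), female 5 of 2 weeks, lowest for miR-23b minus miR-27b (0.732), male 5 of 6 weeks, lowest for the same difference (0.786), and female 4 of 2 weeks, highest for miR-27a minus miR-27b (0.744). For miR-24 alone of the 5 members, the sexes passed as unequal in their young to adult shift (0.29, limma adjusted p = 0.0402). That test was passed by 27.1% of all miRNAs. The sign for miR-24 turned to -0.17 with the detected-everywhere percentile and to -0.21 with quantile normalization, and neither value passed.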

How the results depend on the processing

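The precision of every value is limited by 4 or 5 livers per group, and single members depend on the scaling. Within-array differences do not depend on scaling by a single factor, but quantile normalization moved miR-23b minus miR-27b from young to adult to 0.0069 in females and 0.50 in males (0.12 and 0.30 as reported), miR-27a minus miR-27b in females to 0.33 (0.51) and miR-23a minus miR-23b in males to 0.41 (0.60). Of 1217 values of single members or single ages recomputed under alternatives, 1078 stayed on their side of an adjusted p of 0.05, 73 lost and 37 gained the pass and 29 reversed. A value counts as reversed when its sign changed and it passed in the reported or the alternative fit. Values that passed in neither could change sign and still be among the 1078. With 1 array left out, 5994 of 6072 stayed on their side and 0 reversed in this sense. In the sex tests of single members, most arrays left out belonged to neither group compared, so the difference could not change. Replicate numbers were not taken to pair animals (mean correlation of deviations 0.0532 for same and -0.00759 for different numbers, with 17 of 33 same-age pairs above 0.1). The cause of each shift was not tested.

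With the percentile taken over miRNAs detected on all arrays, the members called higher from young to adult were 0 in males and 0 in females, the F test over 9 ages passed for 3 in males, and the F test over 5 to 104 weeks passed for 3 in males and 4 in females. With quantile normalization these counts were 0 and 0, 3 in males and 3 in females over 9 ages, and 3 and 3 over 5 to 104 weeks. With normexp they were 1 and 0, then 0 in males over 9 ages, and 0 in males and 4 in females over 5 to 104 weeks. With the percentile over all miRNAs, 5 were called from young to adult in females, 3 passed over 9 ages in females and 0 over 5 to 104 weeks in males. The female count over 5 to 104 weeks, 0 in the reported fit, was 1 with the mean processed signal, 1 with the scan and 1 with the slide as a block, 4 with the replicate block and 2 without the 3 livers of 104 weeks. The count of sex calls, 1 in the reported fit, was 4 with the percentile over all miRNAs, 2 with quantile normalization, 6 with normexp, 2 with the scan and 2 with the slide as a block, and 3 with the replicate block. With the percentile over all miRNAs these 4 were all higher in males at 8 weeks, where 29.6% of all miRNAs were called higher. The 2 of quantile normalization were lower in males (3.82% of all miRNAs at 21 weeks and 2.23% at 52 weeks), as were the 6 of normexp (3 at 8 weeks, with 5.73% of all, and 1 each at 15, 52 and 78 weeks, with 1.27%, 0.955% and 1.59%). The methods' t-test gave 13 of 45 at an unadjusted p under 0.05, of which 1 was at 1.5-fold, and 10 after Benjamini-Hochberg adjustment, of which 1 was at 1.5-fold. The count of sex by age class interactions, 1 in the reported fit, was 0 under the detected-everywhere percentile, the percentile over all miRNAs, quantile normalization, normexp, the filter at 50% of arrays and the raw minimum, 3 with the scan as a block, 2 with the slide as a block and 2 without the 3 livers. Shares of all miRNAs under the alternatives are not given for the interactions or for the sex calls with blocks or the t-test. For the F tests they are given only without the 3 livers. Counts lacking a share cannot be read against a background.

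From young to adult, scaling to miRNAs detected everywhere reversed the female values of miR-23b (-0.31), miR-24 (-0.15) and miR-27b (-0.43) and the male values of miR-23b (-0.46), miR-24 (-0.32), miR-27a (-0.13) and miR-27b (-0.76). Quantile normalization reversed miR-23b (-0.38), miR-24 (-0.18), miR-27a (-0.061) and miR-27b (-0.39) in females and miR-23b (-0.20), miR-24 (-0.38), miR-27a (-0.079) and miR-27b (-0.69) in males, and normexp miR-23b in females (-0.13) and miR-27b in males (-0.19). The percentile over all miRNAs reversed the sex difference of miR-27b at 15 (0.32), 52 (0.24) and 8 weeks (1.07), of miR-23b at 52 weeks (0.49), and of miR-23a (1.39) and miR-24 (1.25) at 8 weeks. At 2 weeks miR-24 turned to 0.017 with the detected-everywhere percentile and 0.054 with quantile normalization, and miR-27b to 0.015 with the latter. The old minus adult value of miR-24 in females was -0.17 with the detected-everywhere percentile, and its sex by adult minus young interaction -0.17 with that and -0.21 with quantile normalization.

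Of the 18 sex differences between paralogs, 10 in the reported test, 6 passed with arrays centred on the scan. Of those within clusters, 8 in the reported test, 4 passed with the brighter and 3 with the dimmer probe alone, 2 centred on the scan, 4 with the replicate block and 4 without the 3 livers. Over 5 to 104 weeks, miR-23a minus miR-23b in males passed with the dimmer probe (range 0.36), centred on the scan (0.34), with the replicate block (0.32) and without the 3 livers (0.34), and in females without the 3 livers (0.29). miR-27a minus miR-27b in females passed centred on the scan (0.92), with the replicate block (0.84) and without the 3 livers (0.45). From adult to old, miR-27a minus miR-27b passed in males with the dimmer probe (0.20) and was -0.20 in females without the 3 livers. miR-23a minus miR-27a passed in males with the dimmer probe (0.14) and without the 3 livers (0.12), and in females with normexp (0.14), the dimmer probe (0.14) and without the 3 livers (0.19). From young to adult it missed the threshold in males with normexp (0.17) and passed in females with the dimmer probe (0.20), and over 5 to 104 weeks in males it missed with normexp (0.25) and with the brighter probe (0.27). miR-23b minus miR-27b in females passed with the dimmer probe from young to adult (0.19) and from adult to old (0.098).

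Leaving out 1 array at a time gave 0 to 3 members over 5 to 104 weeks in females (1 without female 5 or 8 of 104 weeks, female 4 of 15 weeks or female 6 of 21 weeks, and 3 without female 2 or 7 of 104 weeks), 1 to 2 sex calls (2 without female 5, male 1 or male 3 of 2 weeks, or without female 6, male 1 or male 4 of 21 weeks) and 0 to 1 interactions (0 without female 1 or 6 or male 2, 4 or 5 of 2 weeks). The range over 5 to 104 weeks in females was 0.25 to 0.75 for miR-23a minus miR-23b (past the threshold at 0.75, without female 5 of 104 weeks) and 0.46 to 1.10 for miR-27a minus miR-27b (past it without female 2, 5 or 7 of 104 weeks, at 1.10, 1.09 and 1.05). miR-27a minus miR-27b from adult to old males was 0.16 to 0.25 and passed in 7 of these fits, without male 4 or 5 of 104 weeks, 2 or 3 of 15 weeks, 1 of 21 weeks, 6 of 78 weeks or 1 of 8 weeks. miR-23a minus miR-27a was 0.17 to 0.32 from young to adult males (missing the threshold at 0.17, without male 3 of 2 weeks), 0.13 to 0.22 in females (passing in 4), and from adult to old 0.086 to 0.12 in males (passing in 2) and 0.12 to 0.16 in females (passing in 10). miR-23b minus miR-27b from young to adult females was 0.10 to 0.13 (passing in 2, without female 1 or 2 of 5 weeks).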
